A study of Homo sapiens with 24 samples.

Results

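FASN, SCD, ACACB and CD36 are 4 genes of fatty acid supply, read here in 4 human acute myeloid leukaemia cell lines with and without metformin. FASN (NCBI gene 2194), SCD (gene 6319) and ACACB (gene 32) encode enzymes of fatty acid synthesis and its control, and CD36 (gene 948) encodes a surface receptor that takes fatty acids up. They were selected on measured values of these same arrays, as genes of 1 pathway whose signal differed with metformin, out of 14884 genes named on the array. The array holds 1 feature each for FASN, ACACB and CD36 and 2 for SCD, and for SCD the feature with the higher mean over the 24 arrays was used. All 4 are among the 10641 genes kept for testing, since each reached 4.02, the median of all array features, in at least 1 group.

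Messenger RNA was labelled from 250 ng of total RNA and hybridized to 24 Affymetrix arrays, 3 for each of 8 groups, lettered A to C. HL60, KG1a, MOLM14 and U937 were each treated with 10 mM metformin for 24 h or left untreated. Metformin is a biguanide drug, which the study's design describes as an inhibitor of respiratory complex I in mitochondria. By their labels, KG1a and MOLM14 have high oxidative phosphorylation (OXPHOS), HL60 and U937 have low OXPHOS, and a second label puts the metformin-treated KG1a and MOLM14 arrays with low OXPHOS. Each class is a pair of established lines, so a difference between classes is a difference between 2 lines and 2 others. Whether the 3 arrays in a group are separate cultures is not said in the labels. The p-values therefore cover only the spread seen between these arrays, which may be technical. In RNA from whole cultures, fewer cells expressing a gene and less RNA per cell cannot be told apart.

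The lines carried the markers of their types in part. CD34, a progenitor antigen, averaged 11.28 in metformin-treated and 11.24 in untreated KG1a and lay under 4.02 in the other 3 lines. The other progenitor genes did not mark KG1a as clearly. In untreated cells KIT averaged 4.17 in KG1a and 4.24 in MOLM14, and FLT3 averaged 3.28 in KG1a, its lowest line. PROM1 averaged 4.02 in untreated KG1a, above the other 3 lines. The granulocyte precursor enzyme MPO averaged 12.53 in treated and 12.48 in untreated HL60, and the kinase receptor FLT3 averaged 10.51 in treated and 10.38 in untreated MOLM14. The other granulocyte precursor genes on the array, PRTN3, AZU1 and CTSG, all read lower in untreated HL60 than in untreated MOLM14 and U937. AZU1 averaged 6.97 in untreated HL60, 10.10 in MOLM14 and 8.70 in U937. The macrophage enzyme LYZ averaged 9.40 in treated and 9.43 in untreated U937, while the monocyte antigen CD14 lay under 4.02 in all 8 groups. The 2 erythroid genes on the array, KLF1 and EPB42, did not exceed 5.03 in any group, and of the 3 platelet genes on the array PPBP and GP9 lay under 4.02 throughout while PF4 read 4.66 to 5.01. Array medians lay between 3.99 and 4.08, and arrays of a group correlated at 0.983 to 0.993. HL60 untreated C, U937 untreated C and U937 metformin A stood apart from the other arrays of their groups, and results that turn on them are given without them.

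A fatty acid is built from acetyl-CoA in the cytosol. ACLY makes the acetyl-CoA from citrate, an acetyl-CoA carboxylase turns it into malonyl-CoA, and fatty acid synthase, the product of FASN, joins these units into palmitate. SCD, stearoyl-CoA desaturase, then puts the first double bond into saturated chains. The 2 carboxylases differ in place: ACACA makes cytosolic malonyl-CoA for synthesis, while ACACB sits at the outer mitochondrial membrane, where malonyl-CoA holds back CPT1, the entry step of fatty acid oxidation. CD36 brings fatty acids and oxidized lipoproteins into monocytes, macrophages, muscle and fat. FASN and SCD are known targets of the transcription factor SREBP-1, made from SREBF1, whose release from the endoplasmic reticulum is held back by INSIG1.

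The start regions of 3 of the 4 genes are shown because the 4 genes did not move the same way, and these are the windows in which their transcription factors' motifs can be looked for. Each window is RefSeq sequence of GRCh38.p14, 300 bases on the plus strand, 5′ to 3′, from 250 bases before to 50 bases after a listed start. For SCD and the CD36 window shown this is the start of the gene. Both ACACB windows lie inside the gene, which starts at chr12:109111189, so the region at that start was not searched. RefSeq gives 1 window for SCD, 2 for ACACB and 6 for CD36, of which the first is shown, and FASN is named only. Capitals mark motif matches on either strand, as listed after the sequences.
SCD, chr10:100346983-100347282: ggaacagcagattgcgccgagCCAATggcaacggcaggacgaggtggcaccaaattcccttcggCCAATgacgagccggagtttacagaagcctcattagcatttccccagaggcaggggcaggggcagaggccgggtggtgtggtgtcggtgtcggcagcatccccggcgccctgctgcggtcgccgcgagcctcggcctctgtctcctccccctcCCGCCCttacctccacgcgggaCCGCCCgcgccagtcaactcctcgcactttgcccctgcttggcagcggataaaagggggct
ACACB, first start, chr12:109116337-109116636: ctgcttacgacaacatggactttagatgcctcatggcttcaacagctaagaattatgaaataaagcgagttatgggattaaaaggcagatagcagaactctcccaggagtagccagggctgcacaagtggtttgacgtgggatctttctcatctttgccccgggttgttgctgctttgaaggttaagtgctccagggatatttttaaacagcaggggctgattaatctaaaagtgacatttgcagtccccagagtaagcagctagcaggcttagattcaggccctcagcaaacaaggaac
ACACB, second start, chr12:109154429-109154728: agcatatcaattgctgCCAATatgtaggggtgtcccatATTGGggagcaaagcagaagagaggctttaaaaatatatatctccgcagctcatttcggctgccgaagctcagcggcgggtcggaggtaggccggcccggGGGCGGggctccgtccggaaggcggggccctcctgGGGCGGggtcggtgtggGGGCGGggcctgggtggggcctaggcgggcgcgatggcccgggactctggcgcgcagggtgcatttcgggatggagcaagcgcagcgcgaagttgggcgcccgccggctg
CD36, first start, chr7:80601957-80602256: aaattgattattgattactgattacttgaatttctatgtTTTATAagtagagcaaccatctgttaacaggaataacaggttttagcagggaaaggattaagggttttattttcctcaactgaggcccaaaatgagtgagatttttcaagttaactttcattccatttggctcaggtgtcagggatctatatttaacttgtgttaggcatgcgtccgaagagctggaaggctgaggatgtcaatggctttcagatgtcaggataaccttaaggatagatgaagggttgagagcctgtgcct

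The motifs searched, on both strands, were a sterol regulatory element (TCACNCCAC), the CCAAT box (CCAAT), the GC box bound by SP1 (GGGCGG), a C/EBP-ATF element (TGATGNAA) and the TATA box (TATAAA). The SCD window held 2 CCAAT boxes, at positions -229 and -186 from the gene's start, and 2 GC boxes on the minus strand, at -33 and -11. The ACACB window at the first listed start, inside the gene, held none of the 5 motifs. The window at its second start held 2 CCAAT boxes, at -234 and -212, and 3 GC boxes, at -112, -77 and -60. The CD36 window shown held 1 TATA box, on the minus strand at -211. No motif match overlapped another in these 4 windows. Of 35116 windows of the same length, 34.6% held the CCAAT box, 45% the GC box, 11.5% the TATA box, 3.62% the C/EBP-ATF element and 1.13% the sterol element. The last 2 were in none of the windows of SCD, ACACB and CD36, which says only that these letters are not there. A match is a description and no evidence of a bound site.

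FASN was lower with metformin in all 4 lines, and most so in HL60 and U937. All signals are log2 values, and a change is the metformin mean minus the untreated mean ± its standard error (SE). In HL60, FASN read 7.24, 7.37 and 7.24 on the metformin arrays, against 8.78, 8.74 and 8.80 on the untreated arrays. In U937 it read 7.42, 7.48 and 7.39 with metformin and 8.63, 8.68 and 8.46 untreated. In MOLM14 it read 7.68, 7.67 and 7.64 with metformin and 8.16, 8.20 and 8.24 untreated. In KG1a, where the drop was smallest, it read 7.70, 7.98 and 7.82 with metformin and 8.22, 8.04 and 8.09 untreated. In each line every metformin array lay under every untreated array, with the smallest gap in KG1a. Across all genes tested, arrays were separated in this way, in either direction, for 37.2% of HL60, 21.0% of KG1a, 26.4% of MOLM14 and 29.9% of U937 genes. The change was -1.49 ± 0.08 in HL60, -0.29 ± 0.08 in KG1a, -0.54 ± 0.08 in MOLM14 and -1.16 ± 0.08 in U937. On a linear scale metformin left 35.7% of the untreated signal in HL60, 82.0% in KG1a, 69.0% in MOLM14 and 44.8% in U937. Averaged over the 4 lines the change was -0.87 ± 0.04, the seventh lowest of 10641 genes. These changes chose the gene, so no test is given for them. Granulocyte precursor markers moved beside FASN in HL60: of 5 in the list 4 are on the array and were kept, of which 2 fell and 1 rose. Across all genes 9.56% fell and 15.5% rose in HL60. The proteinase gene PRTN3 fell by 1.21 ± 0.07 there (limma, adjusted p = 9.41e-12), and the list's mean level was 9.85 to 9.90 on treated and 10.07 to 10.25 on untreated HL60 arrays. Their part in the HL60 values of FASN, SCD and ACACB was not tested.

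SCD was lower with metformin in 3 lines, and its KG1a arrays overlapped. In HL60, SCD read 9.79, 9.68 and 9.81 with metformin, against 10.71, 10.61 and 10.71 untreated. In U937 it read 10.10, 10.16 and 10.16 with metformin and 10.69, 10.78 and 10.62 untreated. In MOLM14 it read 10.23, 10.24 and 10.27 with metformin and 10.75, 10.81 and 10.63 untreated. These 3 lines showed no overlap between treated and untreated arrays. In KG1a it read 10.13, 10.25 and 10.25 with metformin and 10.37, 10.20 and 10.40 untreated, and untreated array B lay inside the treated range. The change was -0.91 ± 0.08 in HL60, -0.12 ± 0.08 in KG1a, -0.48 ± 0.08 in MOLM14 and -0.56 ± 0.08 in U937, with a mean of -0.52 ± 0.04. The second SCD feature, which reads lower, had larger differences of the same sign, at -1.20 ± 0.13 in HL60, -0.22 ± 0.13 in KG1a, -0.67 ± 0.13 in MOLM14 and -0.95 ± 0.13 in U937. Folds of SCD therefore depend on which feature is read, and the order of the lines does not.

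ACACB was higher with metformin in the 2 lines of low OXPHOS. In HL60, ACACB read 6.06, 6.14 and 5.77 with metformin, against 5.02, 4.91 and 4.86 untreated. In U937 it read 6.06, 5.93 and 6.10 with metformin and 5.19, 5.25 and 5.23 untreated. Both lines held the treated arrays clear above the untreated ones. In MOLM14 it read 4.77, 4.55 and 4.77 with metformin and 4.51, 4.46 and 4.61 untreated, so that metformin array B lay within the untreated range. In KG1a it read 3.30, 3.58 and 3.54 with metformin and 3.36, 3.51 and 3.52 untreated, under the median of all array features on every array. The change was 1.06 ± 0.10 in HL60, 0.01 ± 0.10 in KG1a, 0.17 ± 0.10 in MOLM14 and 0.81 ± 0.10 in U937, with a mean of 0.51 ± 0.05. On a linear scale the metformin signal was 2.09 times the untreated one in HL60 and 1.75 times in U937. Signals near the lower end may be compressed, so a change in KG1a could read smaller than it is.

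CD36, the uptake gene, was lower with metformin in MOLM14 and U937, the 2 lines in which its signal was above the median of all features. In MOLM14, CD36 read 4.44, 4.43 and 4.45 with metformin, against 4.83, 5.10 and 5.05 untreated. In U937 it read 5.40, 5.58 and 5.49 with metformin and 5.93, 6.09 and 5.80 untreated. The arrays did not overlap in either line. In HL60 it read 3.06, 2.94 and 3.05 with metformin and 3.14, 3.08 and 3.22 untreated, which did not overlap either but lay wholly below 4.02. In KG1a it read 3.16, 3.04 and 2.92 with metformin and 3.08, 3.10 and 3.07 untreated, and the treated arrays spanned the untreated ones. The change was -0.55 ± 0.09 in MOLM14, -0.45 ± 0.09 in U937, -0.13 ± 0.09 in HL60 and -0.04 ± 0.09 in KG1a, with a mean of -0.29 ± 0.04. On a linear scale metformin left 68.2% of the untreated CD36 signal in MOLM14 and 73.4% in U937. One monocyte marker fell beside it in MOLM14. Of 7 in the list 4 are on the array and 2 were kept, of which CSF1R, the receptor for macrophage colony-stimulating factor, fell by 0.66 ± 0.11 (limma, adjusted p = 0.000412) and LYZ read -0.13 ± 0.11 (adjusted p = 0.647). The mean level of those 4 markers was 5.43 to 5.47 on the treated and 5.66 to 5.73 on the untreated MOLM14 arrays. Of the 4 granulocyte precursor genes kept, 2 fell in MOLM14 and 0 rose. MPO fell by 1.32 ± 0.09 (limma, adjusted p = 2.76e-09) and PRTN3 by 0.26 ± 0.07 (adjusted p = 0.0341). Across all genes 2.57% fell and 2.48% rose in MOLM14. In U937 no monocyte marker passed the test, and the list's mean level was 5.01 to 5.26 on treated and 5.12 to 5.15 on untreated arrays. Of the 4 granulocyte precursor genes 1 fell in U937, PRTN3 by 0.38 ± 0.07 (limma, adjusted p = 0.000804), while MPO, AZU1 and CTSG did not pass. PAX5, the 1 lymphoid gene of 6 on the array, fell there by 0.62 ± 0.11 (adjusted p = 0.000280). Across all genes 9.74% fell and 7.46% rose in U937. The part of these markers in the CD36 result was not tested.

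**Figure D1:**
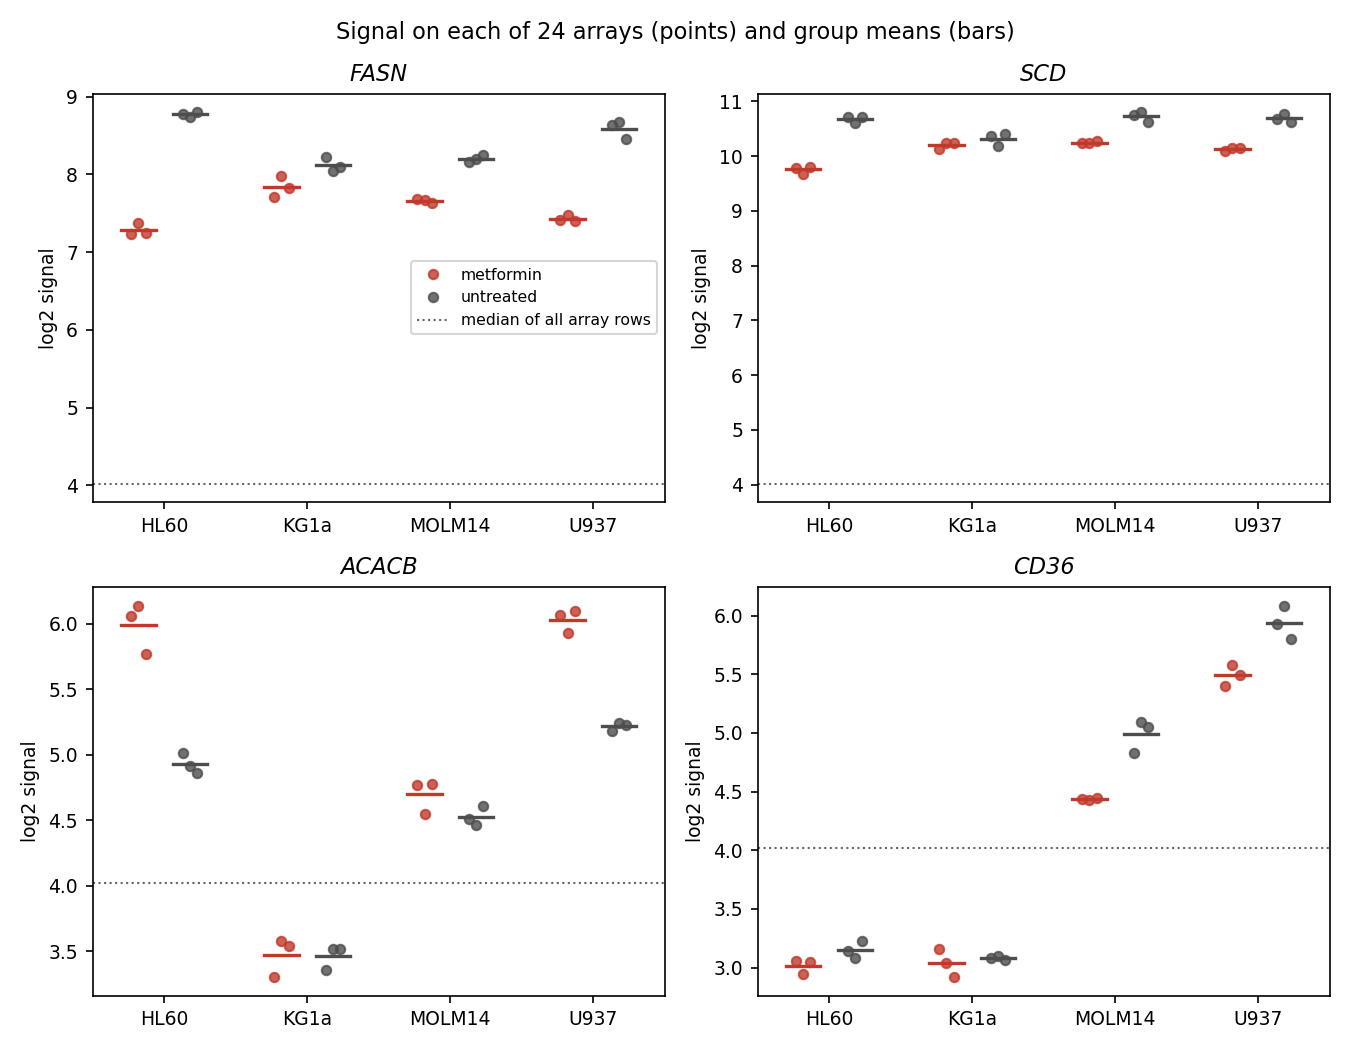
Log2 signal (vertical axis) of FASN, SCD, ACACB and CD36 on each of 24 arrays by cell line, with metformin arrays in red left of untreated arrays in grey; points are arrays, bars are means of 3, and the dotted line is the median of all array features, 4.02. FASN and SCD metformin arrays lie under the untreated ones except for SCD in KG1a, ACACB treated arrays lie above in HL60 and U937, and CD36 is under the dotted line in HL60 and KG1a.

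**Figure D2:**
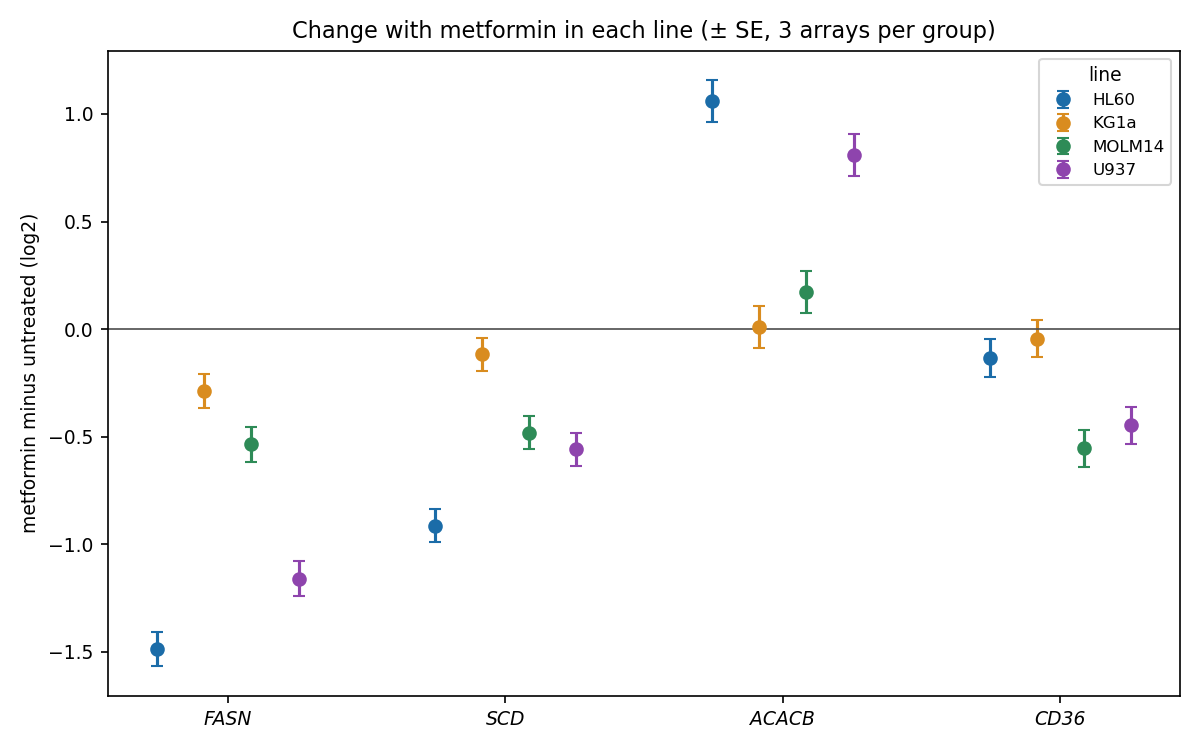
Metformin minus untreated log2 signal (vertical axis) of the 4 genes in each line, with error bars of 1 SE from the fit across all genes and 3 arrays per group. KG1a lies nearest to 0 for all 4 genes, from -0.29 for FASN to 0.01 for ACACB, and HL60 lies farthest for FASN, SCD and ACACB but not for CD36.

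The metformin change of SCD, ACACB and CD36 was then compared between lines, with limma's moderated tests and Benjamini-Hochberg adjustment over all 10641 genes at a threshold of 0.05. A moderated F test over the 4 lines passed for ACACB (adjusted p = 1.47e-05), SCD (adjusted p = 0.000194) and CD36 (adjusted p = 0.0144), a call made for 10.0% of all genes. These genes were chosen for their metformin change on these same arrays. A gene so chosen is likely in advance to differ from a line with few changes, such as KG1a. These tests between lines and classes are therefore no independent evidence, and shares over all genes are no matched background for them. FASN was already known for its class difference when the genes were chosen, so its differences across classes are given with intervals and no test.

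For FASN the drop was smaller in both lines of high OXPHOS than in both lines of low OXPHOS. The change in KG1a minus that in HL60 was 1.20 (95% interval 0.97 to 1.43), and the change in KG1a minus that in U937 was 0.87 (0.64 to 1.11). MOLM14 minus HL60 gave 0.95 (0.72 to 1.18) and MOLM14 minus U937 gave 0.62 (0.39 to 0.86). Averaged, the class difference was 0.91 ± 0.08. Within a class the differences were tested: KG1a minus MOLM14 was 0.25 (0.02 to 0.48, adjusted p = 0.423) and HL60 minus U937 was -0.33 (-0.56 to -0.09, adjusted p = 0.103), and neither passed. With quantile-normalized arrays the HL60 minus U937 difference was -0.40 and passed (adjusted p = 0.0394).

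ACACB split the lines in the same way with the opposite sign. The change in KG1a was lower than that in HL60 by 1.05 ± 0.14 on the log2 scale (KG1a minus HL60 -1.05, adjusted p = 1.56e-05) and lower than that in U937 (-0.80 ± 0.14, adjusted p = 0.00147). The change in MOLM14 was lower than that in HL60 (-0.89 ± 0.14, adjusted p = 0.000177) and lower than that in U937 (-0.64 ± 0.14, adjusted p = 0.0121). Among all genes these 4 tests passed for 8.47%, 2.27%, 4.81% and 2.11%, in the order KG1a minus HL60, KG1a minus U937, MOLM14 minus HL60 and MOLM14 minus U937. The 2 tests within a class did not pass, with KG1a minus MOLM14 at -0.16 (95% interval -0.45 to 0.12) and HL60 minus U937 at 0.25 (-0.03 to 0.53). Those 2 tests passed for 1.05% and 4.67% of all genes. The change of high OXPHOS lines minus that of low OXPHOS lines was -0.85 ± 0.10 (adjusted p = 3.16e-06), in a contrast that 6.69% of all genes passed. ACACB lay below 4.02 in KG1a, where a change may be compressed.

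SCD followed FASN less evenly. The high minus low class difference in change was 0.44 ± 0.08 (adjusted p = 0.000771). The drop was smaller in KG1a than in HL60 (0.80 ± 0.11, adjusted p = 2.24e-05), smaller in KG1a than in U937 (0.44 ± 0.11, adjusted p = 0.0260) and smaller in MOLM14 than in HL60 (0.43 ± 0.11, adjusted p = 0.0173). MOLM14 minus U937 was 0.08 (95% interval -0.14 to 0.30) and did not pass. KG1a minus MOLM14 (0.36, 0.14 to 0.59) and HL60 minus U937 (-0.35, -0.58 to -0.13) did not pass in this fit. The KG1a minus U937 call was lost in 6 of 24 fits without 1 array and when arrays were centred on their medians (adjusted p = 0.0518). The MOLM14 minus HL60 call was lost without HL60 metformin B (0.39) or MOLM14 untreated C (0.38), and on the second SCD feature it did not pass (0.52 ± 0.19, adjusted p = 0.114).

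CD36 did not follow the OXPHOS classes. Its high minus low class difference in change was -0.01 ± 0.09 (95% interval -0.19 to 0.17, adjusted p = 0.973). The change in MOLM14 was lower than that in HL60 (-0.42 ± 0.12, adjusted p = 0.0487), and KG1a minus MOLM14 was 0.51 ± 0.12 (adjusted p = 0.0408). The first call was lost in 17 and the second in 13 of 24 fits without 1 array, and both were lost with no filter on low values (adjusted p = 0.0672 and 0.0560). KG1a minus U937 (0.40, 95% interval 0.15 to 0.66), HL60 minus U937 (0.31, 0.06 to 0.56), MOLM14 minus U937 (-0.11, -0.36 to 0.15) and KG1a minus HL60 (0.09, -0.16 to 0.34) did not pass. CD36 lay below 4.02 in HL60 and KG1a, where differences may be compressed.

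**Figure D3:**
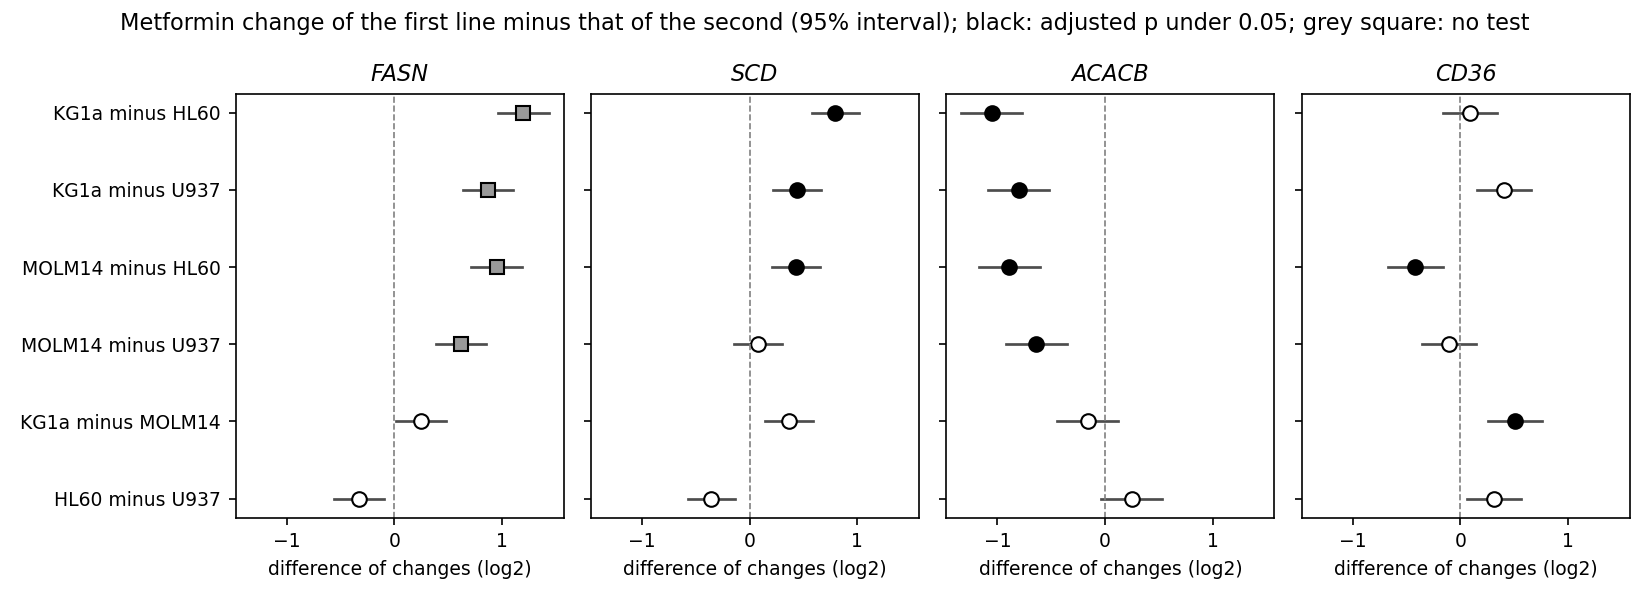
Difference in the metformin change between the lines of each pair (horizontal axis, log2, first line minus second) for the 4 genes, with 95% intervals as bars; black points passed an adjusted p of 0.05, open points did not, and grey squares (FASN across classes) have no test. The top 4 rows, which set a high OXPHOS line against a low OXPHOS line, lie above 0 for FASN and below 0 for ACACB, while CD36 shows no such split.

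The untreated lines already differed in these genes, in a test of untreated levels that 83.2% of all genes passed. The F test between the 4 untreated lines gave adjusted p = 7.05e-05 for SCD, 9.31e-14 for ACACB and 2.83e-20 for CD36 (limma). CD36 was kept for testing only through U937 and MOLM14, and ACACB lay below 4.02 in KG1a. For these genes the test in part restates how they were kept. For FASN, whose class difference in change holds its untreated and treated class differences, levels across classes are a description with no test. Untreated FASN averaged 8.77 ± 0.03 in HL60, 8.59 ± 0.12 in U937, 8.20 ± 0.04 in MOLM14 and 8.12 ± 0.09 in KG1a (SD, n = 3 arrays each). HL60 and U937, neighbours at the top, differed by 0.18 (adjusted p = 0.0547), and KG1a and MOLM14 at the bottom by -0.08 (adjusted p = 0.414, limma), and neither passed. Every untreated HL60 and U937 array read above every untreated KG1a and MOLM14 array. The share of all genes separated in this way was not counted, and the class contrast of untreated levels passed for 61.9%. The separation is therefore only a description of a gene chosen with its class difference known. The pair of HL60 and U937 passed without U937 untreated B (0.23), without KG1a metformin A or B, and under 2 of the other settings.

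With metformin the means of FASN lay in the opposite order. Treated FASN averaged 7.83 ± 0.14 in KG1a, 7.66 ± 0.02 in MOLM14, 7.43 ± 0.04 in U937 and 7.29 ± 0.08 in HL60 (SD, n = 3 arrays each). Tests between treated lines were added after the data had been seen. The top neighbours KG1a and MOLM14 differed by 0.17 (limma, adjusted p = 0.0678) and HL60 and U937 at the bottom by -0.14 (limma, adjusted p = 0.126), and neither passed. Every treated KG1a and MOLM14 array read above every treated HL60 and U937 array, a description for which the share of all genes was not counted. KG1a minus MOLM14 passed with quantile-normalized arrays (0.23) and without KG1a metformin A (0.24). The lines' means spanned 0.55 with metformin and 0.65 without.

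On the feature used, SCD varied least between lines. On the second SCD feature untreated KG1a and U937, its lowest and highest lines, lay further apart (KG1a minus U937 -0.78 ± 0.13), beyond the untreated FASN span of 0.65. The values below are of the feature used. Untreated SCD averaged 10.73 ± 0.09 in MOLM14, 10.69 ± 0.08 in U937, 10.68 ± 0.06 in HL60 and 10.32 ± 0.11 in KG1a (SD, n = 3 arrays each). KG1a was lower than each of the other 3 lines (adjusted p between 5.25e-05 and 0.000287, limma), which did not differ beyond their spread. With metformin SCD averaged 10.25 ± 0.02 in MOLM14, 10.21 ± 0.07 in KG1a, 10.14 ± 0.04 in U937 and 9.76 ± 0.07 in HL60. HL60 was then the line that stood below the other 3 (adjusted p between 5.50e-06 and 0.000145, limma), and the other 3 pairs did not pass.

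ACACB levels lay in 1 order in both conditions. In untreated cells U937 averaged 5.22 ± 0.03, HL60 4.93 ± 0.08, MOLM14 4.53 ± 0.07 and KG1a 3.47 ± 0.09 (SD, n = 3 arrays each), and all 6 pairs passed. The nearest pair, HL60 minus U937, was -0.29 ± 0.10 (adjusted p = 0.0135), and it missed the threshold without HL60 untreated C (-0.25, adjusted p = 0.0521) and without the 3 arrays that stand apart (-0.25, adjusted p = 0.0895). With metformin U937 averaged 6.03 ± 0.09, HL60 5.99 ± 0.20, MOLM14 4.70 ± 0.13 and KG1a 3.47 ± 0.15. U937 and HL60 no longer differed beyond their spread (HL60 minus U937 -0.04, 95% interval -0.24 to 0.16), and the other 5 pairs passed. The span between the highest and the lowest line was 2.56 with metformin and 1.75 without.

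CD36 had an order of lines that cut across the OXPHOS classes, with a span of 2.48 with metformin and 2.85 without. Untreated CD36 averaged 5.94 ± 0.14 in U937, 4.99 ± 0.14 in MOLM14, 3.15 ± 0.07 in HL60 and 3.08 ± 0.02 in KG1a (SD, n = 3 arrays each). With metformin it averaged 5.49 ± 0.09 in U937, 4.44 ± 0.01 in MOLM14, 3.04 ± 0.12 in KG1a and 3.02 ± 0.07 in HL60. In both conditions 5 of 6 pairs passed, and KG1a and HL60 did not differ beyond their spread (-0.07 untreated, 95% interval -0.25 to 0.11). CD36 was kept for testing only through U937 and MOLM14, so pairs of these lines with HL60 or KG1a in part restate how it was kept. U937 and MOLM14, the lines with CD36 above 4.02, also read higher for the monocyte list: its mean level on untreated arrays was 5.12 to 5.15 in U937 and 5.66 to 5.73 in MOLM14, against 4.51 to 4.60 in HL60 and 3.70 to 3.80 in KG1a. Of its 4 markers LYZ averaged 9.88 in untreated MOLM14 and 9.43 in untreated U937, but 7.26 in HL60 and 3.46 in KG1a. In U937 CD14 (3.44) and VCAN (3.31) were no higher than in HL60 (3.48 and 3.35), and CSF1R (4.37) was close to its level in KG1a (4.28).

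Over the classes, the untreated mean of the high OXPHOS lines was below that of the low OXPHOS lines for SCD, ACACB and CD36. The difference was -0.16 ± 0.05 for SCD (limma, adjusted p = 0.0122), -1.08 ± 0.07 for ACACB (adjusted p = 7.91e-13) and -0.51 ± 0.06 for CD36 (adjusted p = 9.43e-08). This contrast passed for 61.9% of all genes. For FASN the same difference was -0.52 ± 0.06, given with no test. For SCD it rested on KG1a, while MOLM14, also of high OXPHOS, had the highest untreated mean on the feature used (10.73). On the second SCD feature the class difference was -0.40 ± 0.09. For CD36 it averaged over lines that differed within the high class (KG1a minus MOLM14 -1.91) and within the low class (HL60 minus U937 -2.79). Untreated CD36 in MOLM14 minus HL60 was 1.84, opposite in sign to the class difference. CD36 was kept for testing only through U937 and MOLM14, so its class test in part restates how it was kept. Pairs of untreated lines passed for 57.4% of all genes in KG1a minus HL60, 61.9% in KG1a minus U937, 56.6% in MOLM14 minus HL60, 55.7% in MOLM14 minus U937, 61.1% in KG1a minus MOLM14 and 55.9% in HL60 minus U937. Pairs of treated lines passed for 62.1%, 62.6%, 57.7%, 56.6%, 62.1% and 59.0% of all genes in the same order. SCD, which passed in 3 of 6 untreated pairs, lay near the background of these arrays in how many lines it separated.

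Genes with the most similar profile were found by Pearson r over the 8 group means among 7058 genes whose means varied (SD of at least 0.25), as a description with no test. The 8 means share lines and arrays and are not independent. FASN was most like INSIG1 (r = 0.91), the sterol-regulated anchor of SREBP, CENPX (r = 0.90), a centromere protein gene, and SCD (r = 0.90). SCD was most like TRAPPC2L (r = 0.95), a gene of vesicle tethering, UHRF1 (r = 0.91), a factor in the maintenance of DNA methylation, and FASN. ACACB was most like GRB10 (r = 0.99), which encodes an adaptor of the insulin receptor, TRIB3 (r = 0.99), a stress-induced pseudokinase gene, and RAB3GAP1 (r = 0.98). TRIB3 averaged 8.30 in treated and 6.62 in untreated HL60 and 4.37 in treated and 4.23 in untreated KG1a. The likeness is looser in MOLM14, where TRIB3 averaged 6.62 in treated and 5.68 in untreated cells while ACACB differed by 0.17. CD36 was most like PLD2, a phospholipase D gene, MGLL, which encodes monoglyceride lipase, and GALK1, which encodes galactokinase (r = 0.99 each). For CD36 these likenesses follow the lines more than the drug: MGLL averaged 5.94 in treated and 6.04 in untreated U937, against 3.69 in treated and 3.65 in untreated HL60.

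The other genes of fatty acid building were mixed. Averaged over the 4 lines, 16.3% of all genes rose and 16.1% fell with metformin, with a median change of -0.01. Of 8 building genes other than FASN and ACACB, 3 fell and 2 rose, with a median of -0.08. ACLY, ATP citrate lyase, fell by 0.32 ± 0.04 (limma, adjusted p = 3.02e-06), and ACACA, the cytosolic acetyl-CoA carboxylase, by 0.15 ± 0.05 (adjusted p = 0.0182). ACSS2, which makes acetyl-CoA from acetate, fell by 0.13 ± 0.05 on average (adjusted p = 0.0266), but of the lines it passed only in HL60 (-0.63 ± 0.09). It read -0.08 in KG1a, 0.15 in MOLM14 and 0.04 in U937, and its change differed between lines (F test, adjusted p = 0.000778). MECR (0.32 ± 0.07, adjusted p = 0.00110) and CBR4 (0.19 ± 0.05, adjusted p = 0.00588), enzymes of the separate mitochondrial fatty acid pathway, rose on average. Of the lines both passed only in HL60, at 0.66 ± 0.14 for MECR and 0.58 ± 0.10 for CBR4. In KG1a they read -0.01 and -0.08, and the CBR4 change differed between lines (F test, adjusted p = 0.0163). The 2 carboxylases thus had opposite signs in HL60, where ACACA read -0.41 ± 0.09 (limma, adjusted p = 0.00232) and ACACB 1.06 ± 0.10. In U937 they read -0.25 ± 0.09 and 0.81 ± 0.10, but ACACA did not pass there (limma, adjusted p = 0.0740). In MOLM14 both lay above 0, at 0.11 ± 0.09 and 0.17 ± 0.10. The ACSS2 call was lost in 5 of 24 fits without 1 array.

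Desaturation and elongation genes fell or did not pass. Of 13 genes other than SCD, 6 fell and 0 rose (limma), with a median of -0.11. At an unadjusted p under 0.05, 7 fell and 1 rose. FADS1 (-0.53 ± 0.05, adjusted p = 2.20e-08) and FADS2 (-0.42 ± 0.05, adjusted p = 1.83e-07), the desaturases of polyunsaturated fatty acids, had the smallest p. Both read near 0 in KG1a, at -0.01 ± 0.10 for FADS1 and 0.07 ± 0.09 for FADS2, where HL60 read -0.71 ± 0.10 and -0.80 ± 0.09. The FADS2 change differed between lines (F test, adjusted p = 0.000465). HACD3, a dehydratase of chain elongation, fell by 0.19 ± 0.04 (adjusted p = 0.00193). SCD5 (-0.17), ELOVL4 (-0.13) and ELOVL6 (-0.13) make up the rest of the count and are named after their values were seen. Of the lines, SCD5 (-0.36), ELOVL4 (-0.52) and ELOVL6 (-0.38) passed only in HL60, and HACD3 (-0.42) only in U937. ELOVL4 lay below 4.02 in KG1a, MOLM14 and U937, and its change differed between lines (F test, adjusted p = 0.0163).

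Among the regulators, INSIG1 fell by 1.27 ± 0.05 (limma, adjusted p = 1.24e-15) and SREBF1 by 0.35 ± 0.06 (adjusted p = 4.21e-05). INSIG1 read -1.70 ± 0.09 in HL60, -1.16 ± 0.09 in MOLM14 and -2.12 ± 0.09 in U937, but -0.11 ± 0.09 in KG1a, and the difference between lines passed (F test, adjusted p = 1.23e-09). PPARA, a fatty acid sensor that drives oxidation genes, rose by 0.21 ± 0.06 (adjusted p = 0.00626). Of 10 regulators 2 rose and 3 fell, with a median of -0.05, and PPARG (0.18) and STK11 (-0.14) complete the counts. SREBF2, which encodes the sterol branch of SREBP, read -0.08 ± 0.04 and did not pass (adjusted p = 0.116).

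In uptake and activation, genes did not move with CD36 as a group. Of 7 genes other than CD36, 2 rose and 2 fell, with a median of -0.04. VLDLR, a lipoprotein receptor, rose by 0.70 ± 0.04 (limma, adjusted p = 8.57e-12), and read 1.59 ± 0.08 in HL60, 0.90 ± 0.08 in U937 and 0.38 ± 0.08 in MOLM14 but -0.07 ± 0.08 in KG1a. ACSL1, which activates long-chain fatty acids, rose by 0.15 ± 0.05 on average (adjusted p = 0.0126) and did not pass with quantile-normalized arrays (0.12). Its change differed between lines (F test, adjusted p = 0.00892). ACSL1 read 0.31 ± 0.09 in HL60 and 0.44 ± 0.09 in MOLM14, but -0.14 ± 0.09 in U937 and -0.01 ± 0.09 in KG1a. FABP5, an intracellular fatty acid carrier, fell by 0.26 ± 0.08 (adjusted p = 0.0125), and ACBD3 (-0.10) just passed. The lower count was 1 in 19 of 24 fits without 1 array. Of 5 scavenger receptors other than CD36, 0 passed in either direction for the mean (limma) and 1 was lower at an unadjusted p under 0.05, with CD68 at -0.10 ± 0.05, CXCL16 at -0.12 ± 0.06, MSR1 at -0.10 ± 0.06 and MARCO at 0.02 ± 0.05. Without KG1a metformin C, 1 of them fell.

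Oxidation and storage genes passed at about the background rate. Of 11 oxidation genes 2 rose and 2 fell, with a median of 0.02. MLYCD, which breaks malonyl-CoA down, rose by 0.16 ± 0.05 (limma, adjusted p = 0.0219) and ETFDH, which passes electrons from acyl-CoA dehydrogenases to ubiquinone, by 0.15 ± 0.05 (adjusted p = 0.0312). CPT2, of the inner mitochondrial membrane, fell by 0.24 ± 0.05 (adjusted p = 0.00114), and HSD17B4 (-0.12) completes the count. CPT1A, the step that malonyl-CoA holds back, read 0.11 ± 0.04 and did not pass (adjusted p = 0.0614). Of 15 storage and release genes 2 rose and 2 fell, with a median of -0.07. The phosphatidate phosphatases LPIN2 (0.20 ± 0.05, adjusted p = 0.00394) and LPIN1 (0.13 ± 0.04, adjusted p = 0.0305) rose, and CIDEB, a lipid droplet protein gene, fell by 0.31 ± 0.06 (adjusted p = 0.000143). PLIN3 (-0.15) completes the count. FITM2, which acts in lipid droplet budding, differed between lines (F test, adjusted p = 0.0134), at 0.41 ± 0.13 in MOLM14 and -0.51 ± 0.13 in U937. ETFDH, MLYCD and LPIN1 did not pass without the 3 arrays that stand apart, so that 0 oxidation genes were then higher. Without 1 array the LPIN1 call was lost in 9 and the ETFDH call in 6 of 24 fits.

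Line by line, KG1a had 0 calls (limma) among the 69 genes of the 7 lists other than FASN, SCD, ACACB and CD36, and 6 at an unadjusted p under 0.05. In HL60 23 of the 69 passed, in U937 15 and in MOLM14 5. Across all genes KG1a had 0.818% of genes higher and 1.67% lower, against 15.5% higher and 9.56% lower in HL60, 2.48% higher and 2.57% lower in MOLM14, and 7.46% higher and 9.74% lower in U937. In HL60, 3 of 8 building genes fell and 2 rose, and 5 of 13 elongation and desaturation genes fell and 1 rose, HACD4 (0.36 ± 0.12, adjusted p = 0.0277, limma). In U937 2 building and 4 elongation genes fell and 0 rose, and in MOLM14 0 and 2 fell and 0 rose, where FADS1 (-0.81 ± 0.10) and FADS2 (-0.46 ± 0.09) were the 2.

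**Figure D4:**
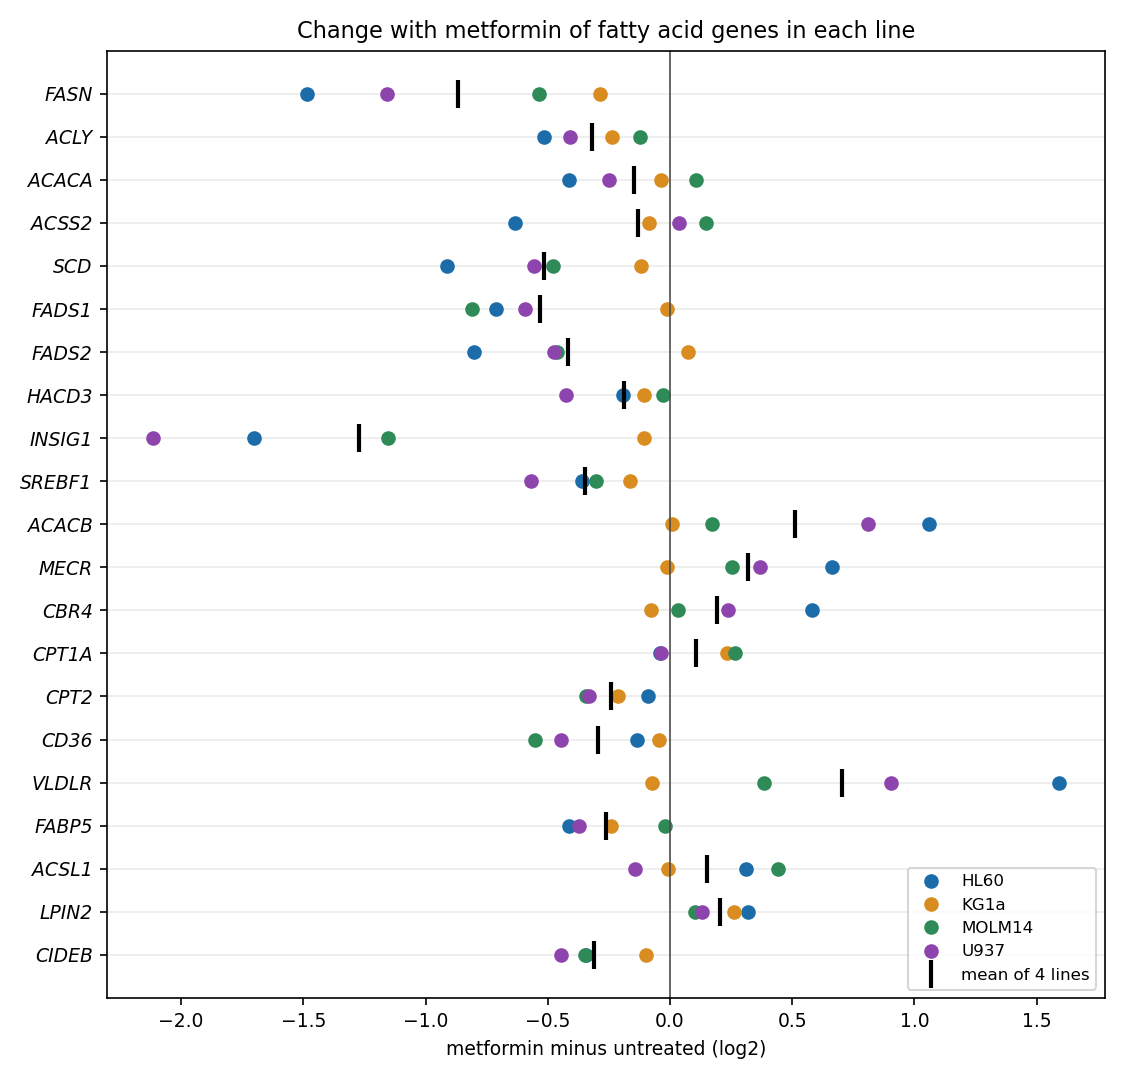
Metformin minus untreated log2 signal (horizontal axis) of 21 fatty acid genes in each of the 4 lines (points) with the mean of the 4 lines (bar). FASN, SCD, FADS1, FADS2 and INSIG1 have negative means while ACACB, MECR and VLDLR have positive ones, and the KG1a point lies near 0 for SCD, FADS1, INSIG1, ACACB and VLDLR.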

How the data were processed

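Per the labels' protocols, 250 ng of RNA from the 4 leukaemia lines (10 mM metformin over 24 h, or none) was labelled with a whole-transcript kit and read on 24 Affymetrix arrays. The values the authors deposited are log2 signals, a base inferred from values that run from 1.88 to 14.2 with array medians near 4. The submitters' processing notes name Partek. How it corrected the background, normalized and summarised is not given in the sources used here, nor is a build.

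Of 53617 rows, 16098 carry 1 gene name in the platform annotation, 0 several, and 37519 are unnamed here. The row with the highest mean stood for each of 14884 genes, and 10641 were kept with a group mean of at least 4.02, the median of all rows. limma 3.58.1 in R 4.3.3 fitted the 8 group means (16 residual degrees of freedom), with Benjamini-Hochberg adjustment over all genes kept and a threshold of 0.05. The 4 genes, the gene lists and the tests were chosen with earlier results of these data known. The metformin changes of the 4 genes and the differences of FASN between classes, in change and in level, therefore carry no test.

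Genes named are the 4, in each list the 3 others with the smallest p for the mean of 4 lines and the 1 with the smallest F test p, some fixed genes of the pathway, and the 3 most alike to each of the 4 over the 8 group means. The fit was repeated with quantile-normalized or centred arrays, with no or a stricter filter, on the mean of a gene's rows, with a mean-variance trend, with the array letter as a block, on each line alone, and without 3 arrays that stand apart or each array in turn. Calculations were tested on simulated data. The number of arrays limits the precision. Python 3.11.15 with matplotlib 3.10.9 drew the figures.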

Additional observations from a re-analysis of the deposited data

Results flagged for a closer look

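The metformin change differed between lines by a test of the difference itself for SCD (F test over the 4 lines in limma, adjusted p = 0.000194), ACACB (adjusted p = 1.47e-05) and CD36 (adjusted p = 0.0144). For SCD the pairs that passed were KG1a minus HL60 (0.80), KG1a minus U937 (0.44) and MOLM14 minus HL60 (0.43), and the high minus low OXPHOS difference was 0.44. For ACACB they were KG1a minus HL60 (-1.05), KG1a minus U937 (-0.80), MOLM14 minus HL60 (-0.89) and MOLM14 minus U937 (-0.64), and the class difference was -0.85. For CD36 they were MOLM14 minus HL60 (-0.42) and KG1a minus MOLM14 (0.51), both across a line whose CD36 signal lay below 4.02. All these genes were chosen for their metformin change on the same arrays, so these tests are no independent evidence.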

How the results depend on the processing

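Each metformin change of FASN, SCD, ACACB and CD36 had the sign given in the report under the 9 other settings and in 24 fits without 1 array, except in KG1a, where without 1 array CD36 lay between -0.10 and 0.02 and ACACB between -0.04 and 0.09. The class differences in change and the F tests of SCD, ACACB and CD36 stayed on their side of the threshold in these fits. The cause of the moves below was not tested, except where fewer arrays, other rows or other genes tested make the setting.

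With quantile-normalized arrays FASN differences between changes passed for HL60 minus U937 (-0.40). Among treated lines, FASN in MOLM14 minus U937 read 0.18, while KG1a minus MOLM14 (0.23) and HL60 minus U937 (-0.29) passed. ACACB in HL60 changed by 0.93, and CD36 passed for KG1a minus U937 (0.45) and HL60 minus U937 (0.41). Counts then were 1 higher and 1 lower in uptake, 1 higher in oxidation, 1 higher and 4 lower in storage and 1 lower among scavenger receptors. With centred arrays SCD KG1a minus U937 (0.44) and CD36 KG1a minus MOLM14 (0.49) were lost. The CD36 calls for MOLM14 minus HL60 (-0.42) and KG1a minus MOLM14 (0.51) were lost with no filter, with a trend and with the replicate block. Counts lower in uptake and oxidation were 1 with centred arrays, no filter, the block or without the 3 arrays that stand apart, and that in storage was 1 in all of these but the block. With a stricter filter, and with a trend, untreated FASN in HL60 minus U937 (0.18) and the SCD change in HL60 minus U937 (-0.35) passed, and with a trend SCD KG1a minus MOLM14 (0.36). The mean of both SCD rows gave changes of -1.05 in HL60, -0.58 in MOLM14, -0.75 in U937 and -0.64 on average. Without the 3 arrays that stand apart, untreated ACACB in HL60 minus U937 (-0.25) was lost, and 0 oxidation genes and 1 storage gene were higher.

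Without 1 array, untreated FASN in HL60 minus U937 ranged from 0.12 to 0.23, and among treated lines MOLM14 minus U937 from 0.21 to 0.26 and KG1a minus MOLM14 from 0.10 to 0.24. Differences between SCD changes ranged from 0.38 to 0.48 (KG1a minus U937), 0.38 to 0.47 (MOLM14 minus HL60) and -0.40 to -0.32 (HL60 minus U937, passed without KG1a untreated B). Untreated ACACB in HL60 minus U937 ranged from -0.33 to -0.25. Differences between CD36 changes ranged from 0.33 to 0.47 (KG1a minus U937, passed without U937 untreated C), -0.50 to -0.37 (MOLM14 minus HL60) and 0.45 to 0.59 (KG1a minus MOLM14). Counts ranged from 0 to 1 for elongation genes higher, 1 to 2 for uptake genes lower, 1 to 3 and 1 to 2 for oxidation genes higher and lower, 1 to 2 and 1 to 3 for storage genes higher and lower, and 0 to 1 for scavenger receptors lower.

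The array letters are no stated pairing: 1 of 12 same-letter pairs deviated together with a correlation over 0.1 (range -0.06 to 0.15), and 12 of 24 arrays correlated best with their own letter. With the replicate block the 2 CD36 calls had adjusted p of 0.0606 and 0.0565 (limma), and no call of FASN, SCD or ACACB was changed. Depth has no count here, and CD36 in HL60 and KG1a and ACACB in KG1a read below the median of all features, where a difference may be compressed.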
